A study of Mus musculus with 10 samples.

Results

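The mouse melanoma line B16F10, made to overexpress Ly86, was grown as tumors in mice that received 4 treatments with anti-PD-1 and anti-CTLA4 together. The tumors were snap-frozen at harvest. They were chosen as the 5 libraries whose labels carry Ly86, out of 10 libraries in the series. The 5 libraries came from 4 tumors of the 7 in the series. Tumor 1 was sequenced as a first and a second part, called piece 1 and piece 2 here, and tumors 2, 3 and 4 gave 1 library each. All groups of the series carried B16F10 cells and received both antibodies. The labels do not state the promoter of the construct, whether the line was 1 clone, or the age, sex and strain of the mice. Tumors are numbered there, but whether each grew in its own mouse is not said, and the spread between tumors may be partly technical. The vector tumors are not compared here.

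MD-1, the product of Ly86, is secreted and binds RP105, the product of Cd180, on B cells and myeloid cells. RP105 resembles TLR4, the receptor for bacterial lipopolysaccharide, whose own partner MD-2 is encoded by Ly96. B16F10 makes melanin and shows little MHC class I at rest, and interferon gamma from T cells raises its antigen presentation. A tumor in a mouse also holds macrophages, lymphocytes, fibroblasts and vessels, and a piece cut from it can include tissue that lies next to it.

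Levels are log2(TPM + 1), where TPM is transcripts per 1000000 of a library and corrects for gene length. The range of a gene is its highest tumor minus its lowest on this scale, with the 2 pieces of tumor 1 averaged first. A range of 2 is a 4-fold difference of TPM + 1. Of 27919 gene symbols, 14535 had a mean of at least 1 TPM over the 4 tumors, and ranges were described for these. The number of reads behind a value is unknown, because TPM does not keep it. Between 19758 and 21367 genes were above 0 in a library. With 1 group of 4 tumors no test between groups exists, so what follows is description. In bulk tissue, fewer cells of a type and less RNA per cell cannot be told apart.

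Ly86 was expressed in all 4 tumors. Its level was 5.65 in piece 1 and 6.37 in piece 2 of tumor 1, 5.76 in tumor 2, 5.90 in tumor 3 and 6.26 in tumor 4. The mean was 5.98 ± 0.21 (SD, n = 4), the mean TPM was 62.7, and the 4 tumors spanned 0.50. The median range of genes with a mean level of 5 to 6 was 0.40. The pieces of tumor 1 differed by 0.73, more than the tumors did. Whether reads from the construct were counted as this gene is not given in the labels. Macrophages also express Ly86. The score of 16 macrophage and monocyte genes, which is the mean log2(TPM + 1) of the list, was likewise higher in piece 2, at 6.34, than in piece 1, at 5.40. Its part in the level of Ly86 was not tested.

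Among the partners, Cd180 varied most, and Tlr4 and Ly96 varied less. Cd180 was at 4.62 and 5.26 in the pieces of tumor 1, 4.97 in tumor 2, 3.70 in tumor 3 and 5.24 in tumor 4. Tumor 3 therefore lay 1.53 below tumor 4 and the others lay close together. Tlr4 stayed between 3.84 and 4.16 over the tumors, a range of 0.32, and Ly96 had a range of 0.52 with its highest value, 5.65, in tumor 3. Over the list of 13 genes of both receptor complexes, with their adaptors and kinases, the median range was 0.50, against 0.51 for all genes. None of the 13 had a wide range, of at least 2, against 4.64% of all genes.

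The targets of the treatment were present at modest levels. Pdcd1, which encodes PD-1, was at 3.42 and 3.23 in the pieces, 3.42 in tumor 2, 1.86 in tumor 3 and 2.43 in tumor 4. Ctla4 was lower and flatter, between 1.46 and 1.85, a range of 0.39. Cd274, which encodes the PD-1 ligand PD-L1, was at 5.90 and 6.47 in the pieces, 6.55 in tumor 2, 5.16 in tumor 3 and 5.83 in tumor 4. Pdcd1 and Cd274 were thus both lowest in tumor 3. The antibodies bind the PD-1 and CTLA4 proteins, whose amount and occupancy mRNA does not report.

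The most abundant genes included mitochondrial, ribosomal protein and pigment genes. Of the 30 with the highest mean, 7 were mitochondrially encoded, 5 had names of ribosomal proteins and 3 were on the pigment cell list. Another 4 were predicted genes, and the remaining 11 included glycolytic enzymes, ferritins and B2m. The 30 took between 16% and 18.3% of all TPM in a library. None of them had a wide range and 1, Tmsb10, had a narrow one.

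First came mt-Co1, the cytochrome oxidase subunit of the mitochondrial genome, with a mean of 13.46. Gapdh, a glycolytic enzyme, followed at 13.44 and spanned 13.30 to 13.57 over the tumors. Tmsb10, which binds actin monomers, was at 13.25 with a range of 0.18. Eef1a1, the translation elongation factor, lay between 12.90 and 13.12 over the tumors, and the ferritin chains Ftl1 and Fth1 were at 12.79 and 12.09. B2m, the light chain of MHC class I, was at 12.75 on average, with 12.52 and 12.76 in the pieces of tumor 1, 12.94 in tumor 2, 12.53 in tumor 3 and 12.90 in tumor 4. The predicted genes Gm10925, Gm28661, Gm28437 and Gm28438 lay between 11.93 and 13.41. They may share reads with near-identical genes, so their separate values are uncertain.

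**Figure D1:**
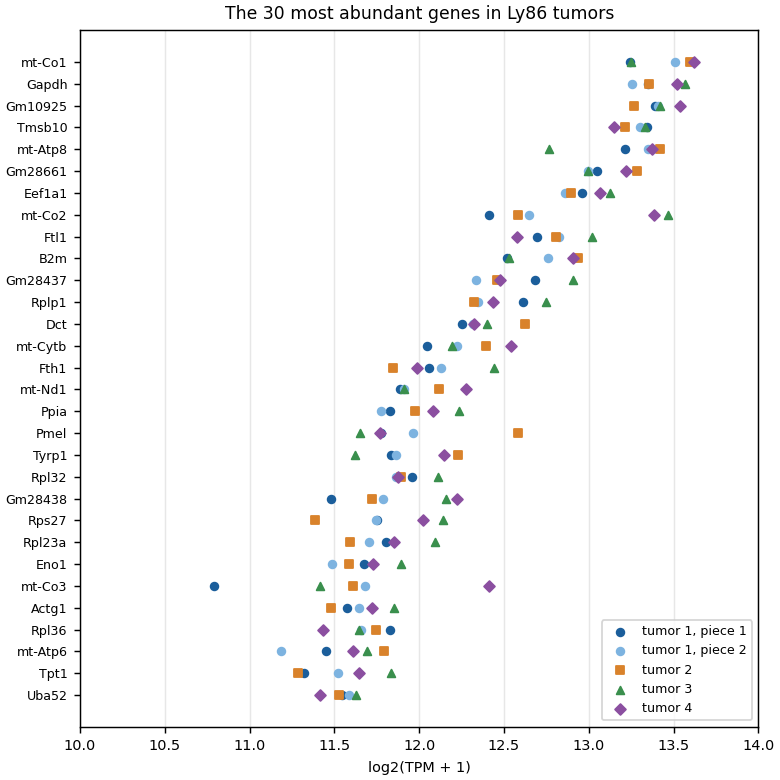
Level of the 30 most abundant genes on the log2(TPM + 1) axis, 1 point per library, with genes ordered by their mean over the 4 tumors. Most genes lie within 1 unit over the libraries, and Pmel in tumor 2 and mt-Co3 in tumor 4 lie to the right of the other points of their rows.

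Mitochondrially encoded genes did not move as 1 block. mt-Co2 was at 12.41 and 12.64 in the pieces and 12.58 in tumor 2, but at 13.47 in tumor 3 and 13.38 in tumor 4. mt-Nd3, a subunit of complex I, showed the same split more strongly, at 9.51, 8.31 and 8.24 against 10.34 and 10.38. mt-Nd4l, another complex I subunit, was lowest in tumor 3 at 8.71, while the other libraries lay between 9.86 and 10.58. Over all 13 members the median range was 0.59 and 1, mt-Nd3, was wide. The whole class took from 4.58% to 6.57% of TPM.

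Melanoma identity was checked against the pigment cell list, and all 20 of its genes passed the level filter in these tumors. Dct, an enzyme of melanin synthesis, was at 12.25 and 12.32 in the pieces, 12.62 in tumor 2, 12.40 in tumor 3 and 12.32 in tumor 4. Pmel, which builds the fibrils of the melanosome, was at 11.77, 11.96, 12.58, 11.65 and 11.77 in the same order. Oca2, a melanosome channel protein, was at 5.12 and 5.68 in the pieces, 6.55 in tumor 2, 5.46 in tumor 3 and 5.42 in tumor 4. Tumor 2 stood above the rest for all 3 genes. The list score was 8.25, 8.68, 8.23 and 8.41 in tumors 1 to 4, and 17 of 20 members were highest in tumor 2, against 28.4% of all genes. With median-of-ratios scaling, which sets the typical gene equal between libraries, 15 of 20 were highest in tumor 2, against 25.8% of all genes. The tumor with the lowest score changed from 3 to 1. Mitf, which encodes the lineage's master transcription factor, was an exception, with its highest value, 8.15, in tumor 4. This gene was picked after its values were seen.

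Of the 14 pigment genes with a RefSeq promoter, 7 held CATGTG on either strand in the 250 bases before the start, against 13.8% of all 27025 promoters in the RefSeq table of build GRCm38.p6. CATGTG is the core of the M-box that MITF recognises. The 80 bases before the start of Tyrp1, a melanin enzyme at 11.96 on average, are shown as the example, from chr4:80834133-80834212 on the plus strand, with the match in capitals.
Tyrp1: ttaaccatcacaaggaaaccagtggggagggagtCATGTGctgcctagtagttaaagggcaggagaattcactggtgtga

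Most genes differed little between the 4 tumors. The median range was 0.51, and the 5th and 95th percentiles were 0.16 and 1.90. A wide range, of at least 2, was seen for 674 genes, 4.64% of those described. The last gene inside that limit had a range of 2 and the first outside had 1.99. A narrow range, of at most 0.2, was seen for 1251 genes, 8.61%. Level mattered for both counts. Among the 9138 genes with a mean of at least 10 TPM, 1.74% were wide and 11.9% narrow, whereas 9.54% of the 5397 genes with a mean of 1 to 10 TPM were wide.

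The 2 pieces of tumor 1 give the spread inside a tumor, and it was not small. The median absolute difference between them was 0.20, against 0.20 to 0.32 for the 9 pairs of libraries from different tumors. For 234 genes the pieces differed by at least 2. Of the 14535 genes, 2610 differed more between the pieces than over the 4 tumors.

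**Figure D2:**
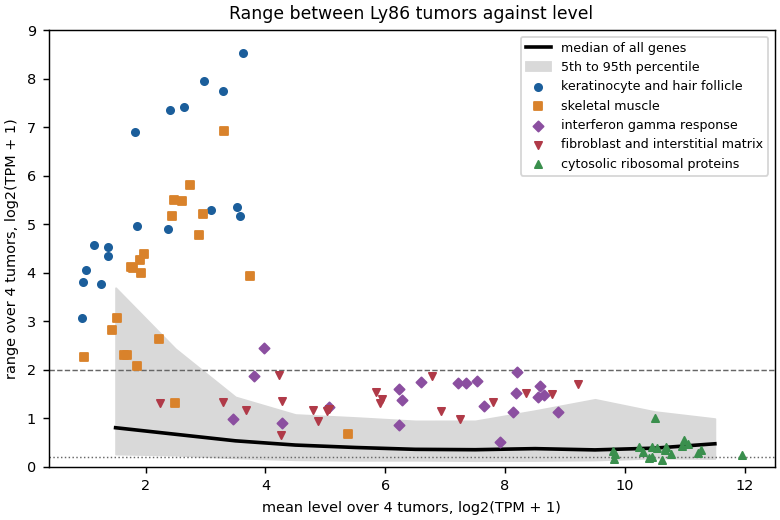
Range over the 4 tumors against mean level, both in log2(TPM + 1). The line is the median and the band the 5th to 95th percentile of all genes in bins of 1 unit, the dashed and dotted lines mark 2 and 0.2, and points are members of 5 lists. All keratinocyte genes and 20 of 22 muscle genes lie above the dashed line at mean levels below 4, and ribosomal protein genes lie near the median at the right, except Rpl13a at a range of 1.01.

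Genes of skin and hair had by far the widest ranges. Among the 30 widest genes, 22 were keratins or keratin-associated proteins and 28 were highest in tumor 1, against 32.9% of all genes. In 24 of the 30 the value was 0 in both tumor 3 and tumor 4. Krtap8-1, a matrix protein of the hair shaft, was at 8.58 and 9.28 in the pieces, 5.58 in tumor 2 and 0 in tumors 3 and 4. Krt71, a keratin of the inner root sheath of the follicle, was at 8.09, 8.98, 5.92, 0 and 0.07 in the same order. Tchh, trichohyalin of the same sheath, was at 8.05, 8.72, 5.66, 0.10 and 0.07. All 3 genes were thus high in tumor 1, intermediate in tumor 2 and at or near 0 in tumors 3 and 4.

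The gene families behaved alike. Grouped by name after their values were seen, 46 of 56 Krtap genes passed the filter. All 46 were wide, all had tumor 1 highest and tumor 2 next or tied for next, and 45 were at 0 in tumors 3 and 4. Of 52 Krt genes, 33 passed, 32 were wide and 33 were highest in tumor 1. A filter on mean level keeps a gene that is high in only 1 tumor, so a wide range was to some extent built into the members that passed. Near-identical keratins and Krtap genes can share reads, and their separate values are uncertain. Krt and Krtap names together took 0.826% and 0.626% of TPM in the pieces, 0.0561% in tumor 2, and 0.000863% and 0.00107% in tumors 3 and 4.

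Within tumor 1, hair genes were similar in the pieces and epidermal genes were not. The pieces lay within 1 of each other for 43 of the 46 Krtap genes. Krt14, a keratin of the basal epidermis, was at 9.60 in piece 1 and 4.22 in piece 2, then 0.39 in tumor 2 and 0 in tumors 3 and 4. Its basal partner Krt5 was at 8.89 and 5.82 in the pieces, 2.31 in tumor 2 and 0 in the other two. Markers of the upper epidermis, picked after their values were seen, split further. Krt1 was at 8.90 in piece 1 and 0.24 in piece 2, and Lor, loricrin of the cornified envelope, was at 8.10 in piece 1 and 0 in every other library. Krt10 was at 9.22 in piece 1 and between 0.39 and 1.5 in the other 4 libraries.

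The keratinocyte and hair follicle list had 18 of its 19 genes past the filter. All 18 were wide and highest in tumor 1, and 15 of the 18 were higher in piece 1 than in piece 2 by more than 1. The limit that the filter on mean level sets applies to these counts too. Its score was 5.86, 2.10, 0.38 and 0.39 in tumors 1 to 4. A few genes outside the keratin families followed tumor 1. Hspb1, a small heat shock protein, was at 6.74 and 6.51 in the pieces and between 4.40 and 4.63 in tumors 2, 3 and 4. Cdh1, the epithelial cadherin, was at 4.57 and 3.17 in the pieces, 1.81 in tumor 2, 0.97 in tumor 3 and 1.18 in tumor 4. Ccl21a, a chemokine of lymphatic vessels, was at 6.21 and 3.75 in the pieces, 1.14 in tumor 2 and 0 in tumors 3 and 4. The part of skin tissue in these genes was not tested.

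Promoters of the keratin families held the letters TATAAA often. Of 60 Krt and Krtap genes with a RefSeq promoter, 44 had TATAAA in the 250 bases before the start, against 8.94% of all promoters. The reverse complement of TATAAA was not searched. On the keratinocyte list 6 of 12 did. The 80 bases before the start of the 2 widest genes of that list are shown with the match in capitals. Krt71 lies at chr15:101743098-101743177 and Sprr1a, a cornified envelope protein, at chr3:92485882-92485961, both on the minus strand of GRCm38.p6.
Krt71: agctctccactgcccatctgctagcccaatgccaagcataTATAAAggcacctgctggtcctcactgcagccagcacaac
Sprr1a: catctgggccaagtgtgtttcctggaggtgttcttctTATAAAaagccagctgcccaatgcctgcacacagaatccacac

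In these sequences the match begins 40 bases before the start of Krt71 and 43 before that of Sprr1a. A match is a description of letters and shows no binding.

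Skeletal muscle genes formed the next group, and here the pieces of tumor 1 parted the other way. Acta1, the skeletal muscle actin, was at 2.49 in piece 1, 8.62 in piece 2, 7.13 in tumor 2, 0.36 in tumor 3 and 0.21 in tumor 4. Tnnt3, a fast-fibre troponin, was at 1.61, 7.45, 5.98, 0.30 and 0.18 in the same order, and Ckm, muscle creatine kinase, at 1.72, 7.25, 5.87, 0.67 and 0.82. Piece 2 was the highest library for all 3 genes, with tumor 2 next. Of 22 list members past the filter, 20 were wide and 20 were highest in tumor 2, against 4.64% and 28.4% of all genes. Of genes with a mean of 1 to 10 TPM, 9.54% were wide. As for the keratins, the filter keeps genes that are high in only some libraries. Both counts were therefore to some extent built into the members that passed. Of the 22, 21 were higher in piece 2 than in piece 1 by more than 1. When only piece 2 stood for tumor 1, or the pieces were averaged as TPM, tumor 1 had the highest score in place of tumor 2. Eno3, the muscle enolase, was the most abundant member, at 5.05 and 6.17 in the pieces, 5.51 in tumor 2, 4.93 in tumor 3 and 5.44 in tumor 4, and its range of 0.68 was below the limit for wide genes.

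**Figure D3:**
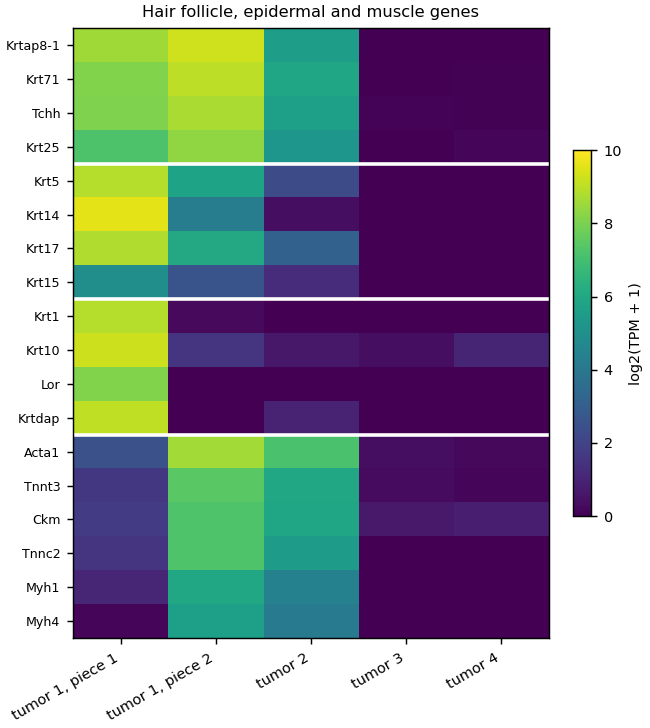
Level of hair follicle, basal epidermal, upper epidermal and skeletal muscle genes, from top to bottom and separated by white lines, in each of the 5 libraries, with colour giving log2(TPM + 1). The follicle block is bright in both pieces of tumor 1, the upper epidermal block in piece 1 alone, and the muscle block in piece 2 and tumor 2.

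Wide genes were most often highest in tumor 1. Of the 674, 392 were highest in tumor 1, 122 in tumor 2, 95 in tumor 3 and 65 in tumor 4, that is 58.2%, 18.1%, 14.1% and 9.64%, whereas 32.9%, 28.4%, 16.2% and 22.5% of all genes were highest in those tumors. The order of tumor 1 first and tumor 2 second held for 51.6% of wide genes and for 17.3% of all genes. Tied tumors were placed by their number, so genes at 0 in tumors 2, 3 and 4 are counted too. Without tumor 1, 364 genes were wide. Predicted genes made up 33.4% of the wide genes and 10.8% of all, and 105 wide genes were at 0 in 3 of the 4 tumors.

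The shares of all genes highest or lowest in each tumor depended on the scaling. As deposited, 44.8% of genes were lowest in tumor 3, with 11.4%, 22.2% and 19% lowest in tumors 1, 2 and 4. With median-of-ratios scaling those shares became 27.9%, 22.4%, 25.6% and 21.7%, and 32.6% of genes were highest in tumor 3. The median gene lay 0.12 below its 4-tumor mean in tumor 3 and 0.08 above it in tumor 1. Counts of list members are set against these shares below, and a small difference in tumor 3 can be of the size of that shift.

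Interferon and antigen presentation genes were low in tumor 3 by more than that shift. Of 21 interferon gamma response genes, 20 were lowest in tumor 3 and 15 highest in tumor 2, against 44.8% and 28.4% of all genes. With median-of-ratios scaling the counts were 19 and 15, against 27.9% and 25.8%. The score was 7.05, 7.29, 5.91 and 6.94 in tumors 1 to 4, with a median range of 1.47 against 0.51 for all genes. Without tumor 3 the range of the score shrank from 1.38 to 0.36.

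Ciita, the master regulator of MHC class II, had the widest range of the list. It was at 4.15 and 4.65 in the pieces, 4.94 in tumor 2, 2.49 in tumor 3 and 4.08 in tumor 4. Tgtp1, an interferon-induced GTPase, was at 8.28, 8.23, 9.02, 7.07 and 8.45 in the same order. Irgm1, a related GTPase and the most abundant of the list, was at 8.98, 9.01, 9.32, 8.19 and 9.04. In each, tumor 3 was lowest, tumor 2 highest, and the pieces of tumor 1 lay between them. The tandem or family members Tgtp1 and Tgtp2, and the Gbp genes, can share reads.

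Many promoters of this list held an element named for interferon. An interferon-stimulated response element, searched as GAAA, any 2 bases and GAAA on either strand, was in 12 of the 15 genes with a RefSeq promoter, against 3.46% of all promoters. A GAS element, TTCNNNGAA, was in 8 of 15, against 8.13%. The 2 motifs can lie in the same window. The type I interferon list had the first element in 9 of 19 genes and the MHC class I list in 3 of 15. The 80 bases before the start of 4 of the genes are shown with the first element in capitals, on its opposite strand in Gbp7. They are at chr11:48992247-48992326 on the minus strand for Tgtp1 and, on the plus strand, at chr11:58214897-58214976 for Irgm2, chr11:58199476-58199555 for Igtp and chr3:142530256-142530335 for Gbp7, in GRCm38.p6.
Tgtp1: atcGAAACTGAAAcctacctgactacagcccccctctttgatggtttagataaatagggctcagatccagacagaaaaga
Irgm2: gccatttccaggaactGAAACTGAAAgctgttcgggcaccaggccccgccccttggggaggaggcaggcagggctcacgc
Igtp: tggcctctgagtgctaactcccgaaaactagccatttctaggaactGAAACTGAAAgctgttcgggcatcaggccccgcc
Gbp7: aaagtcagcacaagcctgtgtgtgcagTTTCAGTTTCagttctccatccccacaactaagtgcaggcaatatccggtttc

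Irgm2 was at 7.36 and 7.46 in the pieces, 7.88 in tumor 2, 6.15 in tumor 3 and 7.45 in tumor 4. Igtp was at 8.81, 8.82, 9.24, 7.59 and 8.67, and Gbp7 at 6.53, 6.56, 6.76, 5.16 and 6.44. The 4 genes kept 1 pattern, with tumor 2 highest and tumor 3 lowest, and ranges from 1.60 to 1.95.

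MHC genes followed. All 17 class I presentation genes were lowest in tumor 3, and 15 were with median-of-ratios scaling, against 44.8% and 27.9% of all genes. Their score was 8.17, 8.31, 7.39 and 7.90. H2-K1, a classical class I heavy chain, was at 11.45, 11.60, 11.74, 11.09 and 11.54 in pieces 1 and 2 and tumors 2, 3 and 4. H2-T23, which encodes the nonclassical molecule Qa-1, spread further, at 8.28, 8.78, 9.02, 7.58 and 8.30, as did Nlrc5, the class I transactivator, at 6.89, 6.67, 6.83, 5.54 and 6.46.

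On the class II list 8 of 11 genes were lowest in tumor 3, also with median-of-ratios scaling, against 44.8% and 27.9% of all genes. Cd74, the invariant chain, was at 10.69 and 11.46 in the pieces, 11.54 in tumor 2, 9.88 in tumor 3 and 10.53 in tumor 4. H2-Aa, a class II alpha chain, was at 9.55, 10.27, 10.50, 8.63 and 9.53. Both were higher in piece 2 than in piece 1 by over 0.70. Ctss, cathepsin S, which degrades the invariant chain, was at 8.33 and 9.51 in the pieces, 9.10 in tumor 2, 8.96 in tumor 3 and 9.16 in tumor 4, so its pieces differed more than its tumors. It was picked after its values were seen.

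Type I interferon response genes were flatter. Of 25, 19 were lowest in tumor 3 and 16 with median-of-ratios scaling, against 44.8% and 27.9% of all genes. The score was 5.53, 5.63, 5.05 and 5.58. Ifit3, the gene of widest range on this list, was at 6.76, 7.24, 7.65, 6.27 and 7.33 over the 5 libraries. Mx1, an antiviral GTPase, was at 3.66, 4.44, 4.09, 3.16 and 4.39. Tumor 3 was lowest for both.

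T cell genes were mostly lowest in tumor 3 as well, and killer cell genes less clearly so. Of 18 T cell genes, 14 were lowest there, against 44.8% of all genes, and 13 with median-of-ratios scaling, against 27.9%. The score was 3.48, 3.26, 2.56 and 3.09. Cd3e, a chain of the T cell receptor complex, was at 3.47, 3.24, 3.73, 2.23 and 2.92 in pieces 1 and 2 and tumors 2, 3 and 4. Trbc2, a constant region of the receptor, was at 5.26, 5.16, 4.79, 3.72 and 4.65.

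Cd8a, the coreceptor of cytotoxic T cells, was at 3.78 and 3.95 in the pieces, 3.90 in tumor 2, 2.46 in tumor 3 and 3.74 in tumor 4. Only tumor 3 departed from the others. Prf1, perforin, was at 4.06, 4.16, 4.30, 2.92 and 3.78, and Ccl5, a chemokine of activated T cells, at 6.49, 7.08, 7.13, 6.28 and 7.21. Of 17 cytotoxic genes, 10 were lowest in tumor 3 under either scaling, against 44.8% of all genes as deposited and 27.9% scaled. As deposited, that count lay near the share of all genes. The score was 3.41, 3.43, 2.82 and 3.09. Klrc1, a receptor of NK and T cells, was at 3.05, 2.95, 3.37, 1.62 and 2.73. Of the 10 NK genes 6 passed the filter, and 4, Klrb1c, Klra4, Klra8 and Klri2, did not. Ifng, picked after its values were seen, was at 2.56, 2.79, 2.64, 1.74 and 2.7. The interferon response genes and the T cell genes thus shared their lowest tumor, and the part of one in the other was not tested.

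Inhibitory receptors and their ligands were lowest in tumor 3 in 13 of 15 genes, and in 10 with median-of-ratios scaling. The shares of all genes were 44.8% and 27.9%. Entpd1, the ectoenzyme CD39, was widest, at 4.14 and 4.84 in the pieces, 5.57 in tumor 2, 3.76 in tumor 3 and 4.47 in tumor 4. Lgals9, which encodes galectin-9, was the most abundant and stayed between 7.39 and 7.78. Foxp3, Ikzf4 and Ccr8 of the regulatory T cell list did not reach the level filter.

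**Figure D4:**
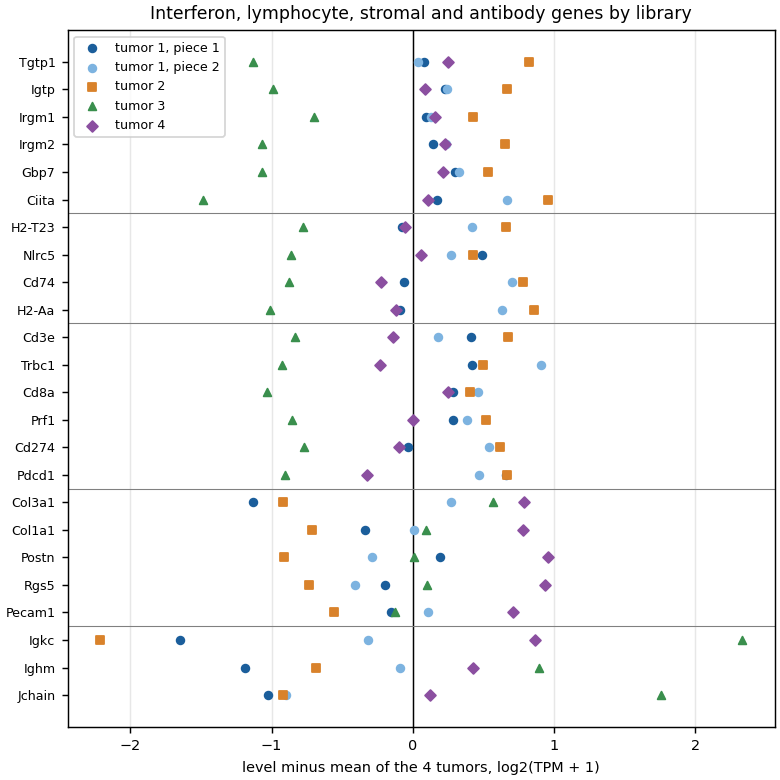
Level minus the 4-tumor mean, in log2(TPM + 1), for interferon gamma response, MHC, T cell and checkpoint, stromal and antibody genes, from top to bottom, 1 point per library. Tumor 3 is the leftmost point in the upper 3 blocks and the rightmost in the antibody block, and tumor 4 is the rightmost in the stromal block.

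Macrophage genes were abundant in every tumor, and their largest contrast was inside tumor 1. The score of 16 macrophage and monocyte genes was 5.87, 5.68, 5.39 and 5.97 in tumors 1 to 4. Of the 16, 11 were highest in tumor 4 under either scaling, against 22.5% of all genes as deposited and 20.9% scaled. Tumor 3 was lowest for 13, and for 9 with median-of-ratios scaling, against 44.8% and 27.9% of all genes. With piece 2 alone standing for tumor 1, tumor 1 had the highest score. Lyz2, lysozyme of myeloid cells, was at 9.45 in piece 1, 10.62 in piece 2 and between 9.89 and 10.03 in the other tumors. Ccr2, the receptor that brings in monocytes, was at 3.64, 5.41, 3.96, 4.09 and 5.01. Piece 1 was the lowest library for both.

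Genes of resident-type macrophages split the pieces more. Their score was 4.23 in piece 1 and 5.74 in piece 2, while tumors 2, 3 and 4 lay at 4.90, 5.40 and 5.27. Pf4 was at 6.42 and 7.80 in the pieces, 6.21 in tumor 2, 8.24 in tumor 3 and 7.20 in tumor 4. Folr2, a folate receptor, was at 5.20, 6.98, 6.31, 6.55 and 6.77. Apoe, a lipid carrier on the list of foamy macrophages, was lowest where Pf4 was highest, at 11.26, 11.22, 11.60, 10.37 and 10.74. The 12 genes of that list scored 8.24, 7.98, 8.05 and 8.26 in tumors 1 to 4. Of the 12, 7 were lowest in tumor 2 under either scaling, against 22.2% of all genes as deposited and 25.6% scaled. Retnla, a marker of alternatively activated macrophages, was at 0 in piece 1, 6.18 in piece 2, 8.02 in tumor 2, 8.52 in tumor 3 and 7.32 in tumor 4.

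Neutrophil genes were uneven, with 8 of 14 past the filter. S100a9, a calprotectin chain, was at 5.0 and 4.05 in the pieces, 0 in tumor 2, 5.11 in tumor 3 and 1.92 in tumor 4. S100a8, the other chain, was at 4.76, 4.95, 1.45, 4.45 and 3.00. Retnlg was at 0 and 2.38 in the pieces, 0.36 in tumor 2, 4.54 in tumor 3 and 2.10 in tumor 4. Tumor 2 was lowest for 6 of the 8 under either scaling, against 22.2% of all genes as deposited and 25.6% scaled. Cxcr2, Camp, Ngp, Ltf and Trem1 did not reach the filter.

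Antibody genes were highest in tumor 3, the tumor with the lowest T cell score. Igkc, the kappa constant region, was at 2.50 and 3.83 in the pieces, 1.93 in tumor 2, 6.48 in tumor 3 and 5.01 in tumor 4. Ighm, the heavy chain of IgM, was at 3.70, 4.79, 4.20, 5.78 and 5.32, and Jchain, which joins antibody polymers, at 0.11, 0.24, 0.21, 2.90 and 1.26. All 3 had the order tumor 3, tumor 4, then the rest. The B and plasma cell list passed the filter with only 5 of 14 genes, and Cd79a, Ms4a1 and Pax5, which mark B cells, did not pass.

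Chemokines were most often highest in tumor 3. Of 24, 14 were highest there, and 16 with median-of-ratios scaling, against 16.2% and 32.6% of all genes. The score was 4.20 in piece 1, 5.04 in piece 2 and 4.74 in tumor 3. When only piece 2 stood for tumor 1, or the pieces were averaged as TPM, tumor 1 had the highest score in place of tumor 3. The same change came with a minimum mean of 5 TPM. Ccl8 was the most abundant, at 9.47, 10.10, 8.79, 10.11 and 9.75, and Cxcl5, which attracts neutrophils, was at 1.37, 4.15, 1.90, 4.42 and 2.76. Cxcl9, induced by interferon gamma, was an exception, with 5.41 in tumor 3 and 6.40 to 6.78 in the other libraries. It was picked after its values were seen.

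Stromal genes were highest in tumor 4. Of 20 fibroblast and matrix genes, 19 were highest in tumor 4, against 22.5% of all genes, and 17 with median-of-ratios scaling, against 20.9%. Tumor 2 was lowest for 16 under either scaling, against 22.2% of all genes as deposited and 25.6% scaled. The score was 5.54, 5.21, 5.81 and 6.34. Col3a1, a fibrillar collagen, was at 8.09 and 9.49 in the pieces, 8.30 in tumor 2, 9.79 in tumor 3 and 10.01 in tumor 4. Col1a1, the main fibrillar collagen, was at 8.44, 8.79, 8.07, 8.87 and 9.56. Postn, a matricellular protein, was at 6.97, 6.49, 5.87, 6.79 and 7.74. Pi16, of adventitial fibroblasts, was the exception, at 4.93 in tumor 3, 4.88 in tumor 2 and 4.08 in tumor 4.

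Vessel genes had the same high tumor. Of 16 endothelial genes, 11 were highest in tumor 4 under either scaling, against 22.5% of all genes as deposited and 20.9% with median-of-ratios scaling. Pecam1, the adhesion molecule CD31, was at 4.66, 4.92, 4.26, 4.69 and 5.52, and Rgs5 of pericytes at 4.54, 4.33, 4.00, 4.84 and 5.68. Of the 11 pericyte and smooth muscle genes past the filter, only 4 were highest in tumor 4 under either scaling. At a minimum mean of 5 TPM, the highest score of that list moved from tumor 4 to tumor 1. Cma1, a chymase of mast cells, was also highest in tumor 4, with 3.22, 3.96, 2.88, 2.23 and 4.51.

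Proliferation genes varied little but together. Of 20 mitosis genes, 19 were lowest in tumor 2, against 22.2% of all genes, and 20 with median-of-ratios scaling, against 25.6%. Of 20 replication genes, 16 were, and 15 with that scaling. The pieces of tumor 1 differed by 0.35 in the replication score, against 0.29 over the tumors. When only piece 2 stood for tumor 1, the lowest replication score moved to tumor 1, and the lowest mitosis score stayed in tumor 2. Ube2c, of the anaphase-promoting machinery, was at 7.47 and 7.14 in the pieces, 7.0 in tumor 2, 7.85 in tumor 3 and 7.66 in tumor 4. Top2a, the mitotic topoisomerase, spanned only 0.29. The highest score lay in tumor 4 as deposited and in tumor 3 with median-of-ratios scaling, so no highest tumor is named. Tumor 2, with the highest pigment genes, was thus the lowest for mitosis genes.

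**Figure D5:**
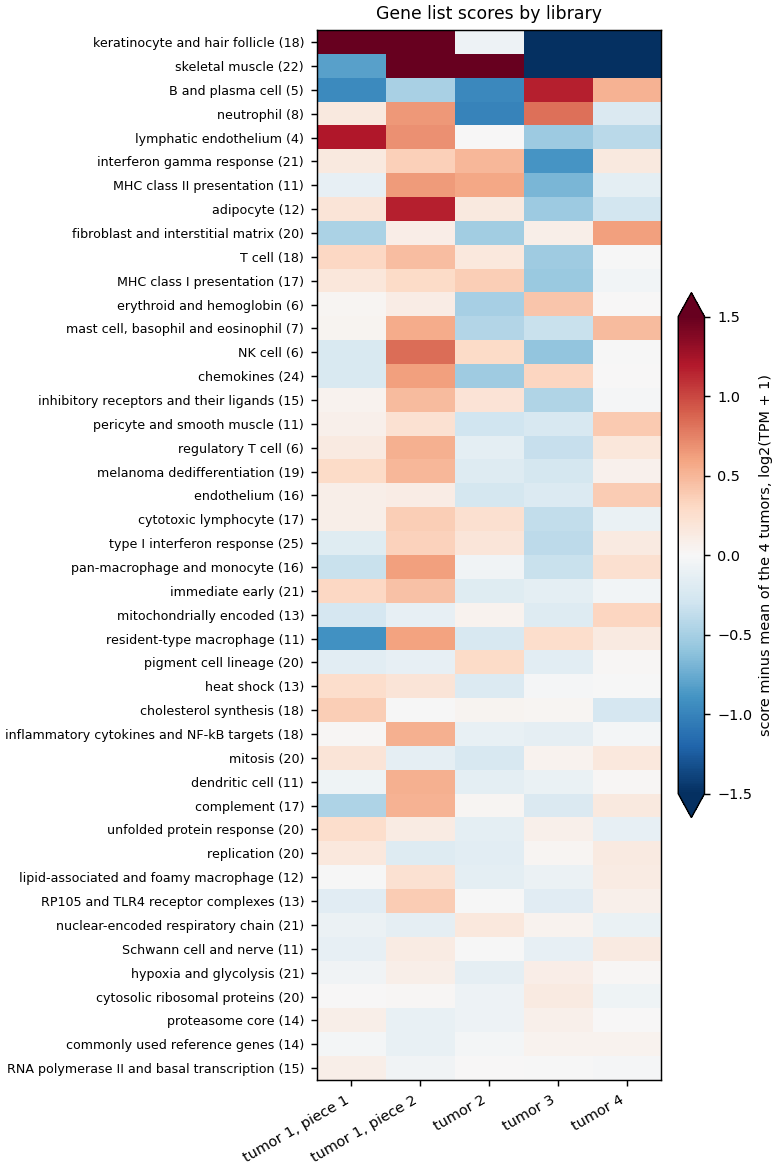
Scores of 44 gene lists minus their 4-tumor mean, in log2(TPM + 1), in each library, with the number of members past the filter in parentheses. Lists are ordered by the range of their score, red is above and blue below the mean, and values beyond 1.5 take the end colours. Skin and muscle lists stand at the top, and core transcription and reference genes at the bottom.

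Over the 44 lists, 29 had at least 50% of their members highest in the tumor where the score was highest. Between the lists, the median range of members was above the 0.51 of all genes in 32. The highest score fell in tumor 1 for 16 lists, tumor 2 for 8, tumor 3 for 8 and tumor 4 for 12, and the lowest in tumor 3 for 21 and tumor 2 for 19. Of the 43 lists that could be scored under both scaling alternatives, 34 kept their highest tumor and 33 their lowest. The mitochondrially encoded list has no members left in one of them. Some lists share genes, so they are not independent.

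The narrowest genes barely differed between tumors. Commd6, a COMM domain protein of endosomal sorting, had a range of 0.02, with 5.37 in tumors 1 and 2, 5.36 in tumor 3 and 5.38 in tumor 4. Zmat2, a splicing factor, lay between 5.52 and 5.55, and Ppat, which starts purine synthesis, between 4.46 and 4.48. The RNA-binding proteins Raly and Hnrnpd lay at 8.06 and 7.30 on average, each with a range of 0.03. Others among the 20 narrowest were Sumo3, a ubiquitin-like modifier, Tufm, a mitochondrial elongation factor, Gemin4, of the complex that builds splicing particles, and Med23, of the Mediator. The pieces of tumor 1 differed more than the 4 tumors did for 17 of the 20, for example 5.25 and 5.49 for Commd6, so a small range partly comes from the averaging of the pieces. At a mean of at least 10 TPM, Tomm34, of mitochondrial import, and Dcaf15, a ubiquitin ligase adaptor, replaced Zfp90 and Tmem71 among the 20.

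Lists of housekeeping genes had median ranges below the 0.51 of all genes. The 14 proteasome core genes had a median range of 0.24, with 6 narrow, and the 14 reference genes one of 0.31, with 2 narrow. Of all genes 8.61% were narrow, and of those with a mean of at least 10 TPM 11.9%. Of 20 cytosolic ribosomal protein genes 4 were narrow. In tumor 3, 17 were highest, and 19 with median-of-ratios scaling, against 16.2% and 32.6% of all genes. Rpl32 was at 11.96, 11.86, 11.89, 12.11 and 11.87. Rpl13a departed, with 10.29 in tumor 3 and 9.98 in tumor 4 against 10.58 to 10.99 elsewhere. The score of 15 genes of RNA polymerase II and basal transcription stayed between 5.73 and 5.77, while Polr2a, its largest subunit, was at 5.44 in tumor 3 and between 6.26 and 6.40 in the other libraries.

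Some wide genes stood outside every list. Hotairm1, a noncoding RNA of the HOXA cluster, was at 0.92 and 5.01 in the pieces, 0.50 in tumor 2, 6.02 in tumor 3 and 0.52 in tumor 4. Bc1, a short noncoding RNA made by RNA polymerase III, was at 6.13 in tumor 2 and 0 in every other library. Glb1l, a galactosidase-like gene, was at 6.33 in tumor 4 and between 2.83 and 3.51 elsewhere.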

How the data were processed

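Polyadenylated RNA of snap-frozen tumors was sequenced on a NovaSeq instrument, per the labels' protocols. The submitters' processing notes name STAR 2.7.10b, RSEM 1.3.3 and build mm39. The deposited values are log2(TPM + 1), a scale read from the values: back on the linear scale, 99.9% of them fell on steps of 0.01 TPM, with a tolerance of 1e-04 steps. No deposited column was left unmapped. The sources used here do not say how repeated symbols were handled. Read depth is unknown.

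The pieces of tumor 1 were averaged on the log2 scale. Genes with a mean of at least 1 TPM were ranked by level and range in Python 3.11.15 with pandas 2.3.3, checked on simulated data. The members and 44 gene lists (698 genes, 3 absent, 648 past the filter) were chosen with earlier results of these data known. Genes to name were drawn from Ly86 and its partners, the treatment targets, the 30 most abundant, the 30 widest and the 6 widest per tumor. They were also drawn from the 20 narrowest at 2 levels and from 2 to 4 members per list, the highest and widest. Predicted genes were left out among the widest and narrowest. Only some of the genes in these sets are named above. Other genes were named after their values were seen. Alternatives were other pseudocounts, filters, scalings, piece choices and tumors left out. Promoters came from RefSeq. Coordinates of mm39 were not used here.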

Additional observations from a re-analysis of the deposited data

Results flagged for a closer look

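Of 122 genes picked for description, not all of them named above, 13 had 1 tumor apart from the other 3. In these, the share of the whole range taken by the gap passed Dixon's 95% critical value. Chance gives this in about 1 of 20 groups, but these genes were chosen partly for their range or after their values were seen, so the count is not read against that rate. The gap took up 0.943 of the range for Oca2, highest in tumor 2, and all of it, a share of 1, for Bc1, present in tumor 2 alone. Tumor 1 stood high for Krt14 (0.944), Krt1 (1), Lor (1), Krt10 (0.873) and Hspb1 (0.899). For Krt14, Krt1, Lor and Krt10 that height came mostly from piece 1, with Krt1 at 8.90 there and 0.24 in piece 2, so the averaged value describes neither piece. Tumor 3 stood low for Cd8a (0.891), Ifng (0.934) and Polr2a (0.889), and high for Rpl32 (0.844). Tumor 4 stood low for Raly (0.896), over a range of only 0.03, and high for Vim (0.934), over a range of 0.13. None of the 44 list scores had a tumor that far apart.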

How the results depend on the processing

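Counts of wide and narrow genes depended on settings. A pseudocount of 0.1 gave 1096 wide genes in place of 674, and a minimum mean of 5 TPM, which describes fewer genes, gave 258. Leaving out 1 tumor at a time gave 364 to 633, the lowest without tumor 1. Narrow genes rose from 1251 to 5199 with no filter, where genes near 0 cannot spread, and to between 2342 and 3483 with 3 tumors, where a range is smaller by construction. Under the other settings both counts stayed within 1.5 times. Of the 30 most abundant genes 23 to 30 stayed in the top 30, the mean of Ly86 stayed between 5.89 and 6.07, and 27 to 36 lists had at least 50% of their members highest in the score's highest tumor. Of 234 recomputed score ranges of 18 lists, 15 moved by more than the SD between tumors. Without tumor 3 the range fell to 0.11 for type I interferon, 0.39 for T cell and 0.41 for MHC class I genes. Without tumor 4 the fibroblast range was 0.60. No paired analysis was possible because only 1 group is described and no test was made. TPM keeps no depth, so low values and zeros carry unknown counting error.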

Other observations

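Variable region genes of antibodies and of T cell receptors, grouped by name after their values were seen, pointed to different tumors. Of 62 antibody variable genes in the table, 3 and 8 were above 0 in the pieces of tumor 1, 10 in tumor 2, 26 in tumor 3 and 21 in tumor 4. Their summed TPM was 14.2 and 15.9 in the pieces, 12.9 in tumor 2, 115 in tumor 3 and 55.3 in tumor 4, the same order of tumors 3 and 4 as Igkc. Of 80 T cell receptor variable genes, 16 and 28 were above 0 in the pieces, 22 in tumor 2, 19 in tumor 3 and 32 in tumor 4. Their summed TPM was lowest in tumor 3, at 34.1, and lay between 52.3 and 69.4 in the other libraries. Near-identical variable genes can share reads.

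Other single values were uneven. Egr3, an immediate early transcription factor, was at 3.04 in both pieces of tumor 1 and at 1.3, 0.58 and 1.01 in tumors 2, 3 and 4. Chac1, a target of the unfolded protein response, was at 4.78 and 4.86 in the pieces and 3.38, 3.85 and 2.88 in tumors 2, 3 and 4. Car3, an adipocyte and muscle enzyme, was at 3.46 in piece 1, 6.91 in piece 2, 5.34 in tumor 2, 2.74 in tumor 3 and 3.41 in tumor 4, with piece 2 and tumor 2 highest, as for the muscle genes. Axl, a receptor of dedifferentiated melanoma cells, was at 6.39, 6.77, 7.22, 5.50 and 6.11 in pieces 1 and 2 and tumors 2, 3 and 4. Its highest and lowest tumor were those of the interferon genes. The list it belongs to, with 19 dedifferentiation genes past the filter, scored 3.93, 3.34, 3.27 and 3.59 in tumors 1 to 4. Of the 19, 9 were highest in tumor 1, against 32.9% of all genes. As deposited, the score was lowest in tumor 3, with 8 of the 19 lowest there, against 44.8% of all genes. With median-of-ratios scaling, the lowest score moved to tumor 2, with 11 of the 19 lowest there, against 25.6% of all genes.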
